A study of Homo sapiens with 2 samples.

Results

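The genes described here encode enzymes that add chemical groups to histones, the writers, or remove them, the erasers. Members were found by symbol, and the group was proposed with earlier results of these data known. It holds the protein-coding genes of the RefSeq table (assembly GRCh38.p14) whose symbols start with KMT, KDM, KAT, HDAC, SIRT, SETD, PRMT, EHMT or SUV39 followed by a digit, or a letter and a digit, which leaves out the katanin genes. This gave 78 of 20037 protein-coding genes, made up of 40 writers and 38 erasers. The name does not make every product a histone enzyme. Of the 78, 15 were marked by hand as known mainly for another substrate or as having an activity that is not settled. Examples are the mitochondrial sirtuins, the actin methyltransferase SETD3 and the tubulin deacetylase HDAC6. This marking was a judgement, and its line could be drawn elsewhere. SETDB2-PHF11 is a readthrough gene that shares the SETDB2 locus, so these entries are not independent.

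The data were chromatin immunoprecipitation followed by sequencing (ChIP-seq) with an antibody against WSTF in SW620, an established human colorectal adenocarcinoma line grown from a lymph node metastasis. WSTF, the product of BAZ1B, is a bromodomain protein that joins the ATPase SMARCA5 in a chromatin remodelling complex and also acts in the vitamin D receptor-associated WINAC complex. GEO lists 2 samples, titled SW620-IP and SW620, and the labels do not say whether the second is the input. The series is titled as a WSTF knockdown while its design text describes overexpression, so the WSTF level of these cells is not known from the labels. The analysis rests on a single list of 2697 peak summits (hg38), each 1 base with the peak caller's score, read as −log10 of the q-value. No replicate list was analysed and the read depth is unknown. A missing summit therefore does not show that WSTF is absent, and a list of positions offers no marker expression with which to check the colon label.

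Lysine methylation of histone H3 marks chromatin states: methylation of H3K4 is found at active promoters and enhancers, of H3K36 along transcribed genes, and of H3K9 and H3K27 in silenced chromatin. Acetyltransferases loosen the contact between histones and DNA and create docking sites for bromodomains, and deacetylases and sirtuins reverse this. Each mark is thus set by opposing enzymes. For H3K9 and H3K4 their counts are set side by side below, and for the other marks they are given separately.

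A gene was counted when a summit lay inside it or within 1 kb of either outer end. By this count 29 of the 78 genes carried a summit (37.2%, exact 95% interval 26.5 to 48.9), where 13.8% of all protein-coding genes did. Among writers 17 of 40 had a summit (42.5%, 27.04 to 59.1), and among erasers 12 of 38 (31.6%, 17.5 to 48.7). A window of 500 bp gave 29 genes (13.3% of all protein-coding genes) and a window of 5 kb gave 30 (15.6%). The share of writers was 10.9 percentage points above that of erasers, and the intervals overlap over most of their width. Among summits at or above the list's median score the gap was 1.58 points. Intervals cover counting error over genes alone. No test was made of the members against other genes or of writers against erasers, because the genes are positions in 1 list and not replicates.

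**Figure D1:**
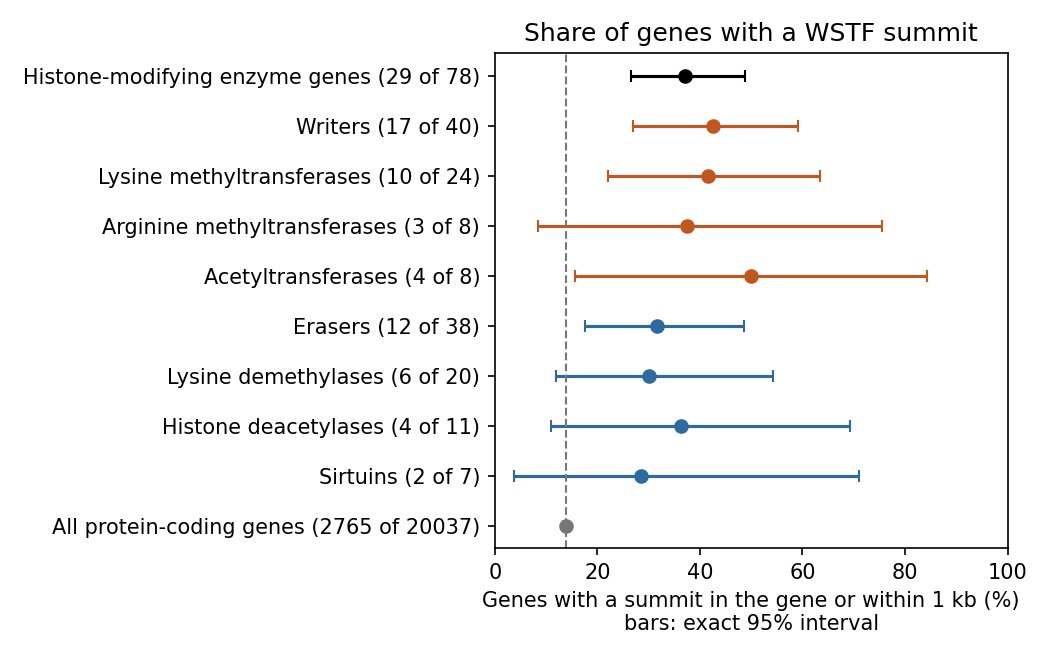
Percentage of genes that carried a summit, inside them or up to 1 kb away (x axis), for all 78 enzyme genes, for writers and erasers and their classes (rows), and for all protein-coding genes (bottom row and dashed line). Points are shares and bars exact 95% intervals; every class share lies to the right of the dashed line at 13.8%, and the bars of arginine methyltransferases, lysine demethylases, histone deacetylases and sirtuins reach it.

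The strongest summits of the group lay at the starts of writers. KAT5, which encodes TIP60, the acetyltransferase of the NuA4 complex, had a summit at chromosome 11 position 65712107 with a score of 9.12. It ranked 68 among the 2697 summits. KMT2A, the H3K4 methyltransferase gene also known as MLL, followed with 8.58 (rank 87) at chromosome 11 position 118436287. The next scores were 5.99 at SETD9, 5.44 at SETD6, 5.27 at KDM3A, and 5.20 at both KDM4D and KMT2B. None of the 33 summits in the group reached 10, a score that 42 summits of the list reached.

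Of the 72 members with a start in the RefSeq promoter table, 13 had a summit between 250 bases before that start and 30 bases from it. The share of all protein-coding genes was not computed for this window, so the count only sets which windows could be printed. The 6 with the highest scores are printed here, 5′ to 3′ on the gene's strand (the + strand for all 6), to let the base composition and short motifs at these summits be read directly. Capitals mark 8 motifs searched on both strands: the ETS site (CCGGAAG), the NRF1 site (GCATGCGC), the GC box (GGGCGG), the CCAAT box (CCAAT), the YY1 site (ANATGGCGG), the cAMP response element (TGACGTCA), the E-box (CACGTG) and the TATA box (TATAAA). In KMT2B neighbouring GC boxes overlap and form 1 capital run. The windows are chr11:65712002-65712281 for KAT5, chr11:118436242-118436521 for KMT2A, chr16:58515267-58515546 for SETD6, chr11:94973459-94973738 for KDM4D, chr19:35717753-35718032 for KMT2B and chr12:123383882-123384161 for KMT5A (GRCh38.p14).
KAT5: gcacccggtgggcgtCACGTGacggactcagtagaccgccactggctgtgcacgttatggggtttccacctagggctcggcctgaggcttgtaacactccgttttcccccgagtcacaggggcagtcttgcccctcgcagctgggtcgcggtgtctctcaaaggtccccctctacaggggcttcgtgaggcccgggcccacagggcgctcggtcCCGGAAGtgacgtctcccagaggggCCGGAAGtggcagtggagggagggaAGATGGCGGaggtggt
KMT2A: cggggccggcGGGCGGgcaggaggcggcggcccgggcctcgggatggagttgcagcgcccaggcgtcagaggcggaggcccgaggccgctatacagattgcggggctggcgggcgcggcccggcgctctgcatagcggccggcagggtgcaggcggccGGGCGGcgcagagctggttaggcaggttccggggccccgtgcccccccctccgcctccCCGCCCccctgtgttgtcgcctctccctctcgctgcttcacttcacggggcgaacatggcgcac
SETD6: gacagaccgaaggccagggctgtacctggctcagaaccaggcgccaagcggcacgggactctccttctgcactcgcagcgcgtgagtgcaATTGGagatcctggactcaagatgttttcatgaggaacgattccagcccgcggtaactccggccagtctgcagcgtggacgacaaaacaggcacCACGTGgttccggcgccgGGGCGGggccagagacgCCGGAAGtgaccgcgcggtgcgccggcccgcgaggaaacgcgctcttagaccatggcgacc
KDM4D: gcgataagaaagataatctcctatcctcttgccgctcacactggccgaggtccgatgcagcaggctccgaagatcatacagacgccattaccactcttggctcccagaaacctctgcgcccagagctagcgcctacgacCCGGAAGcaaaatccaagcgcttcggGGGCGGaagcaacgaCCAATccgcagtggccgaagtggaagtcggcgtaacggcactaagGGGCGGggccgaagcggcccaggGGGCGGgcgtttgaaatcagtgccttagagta
KMT2B: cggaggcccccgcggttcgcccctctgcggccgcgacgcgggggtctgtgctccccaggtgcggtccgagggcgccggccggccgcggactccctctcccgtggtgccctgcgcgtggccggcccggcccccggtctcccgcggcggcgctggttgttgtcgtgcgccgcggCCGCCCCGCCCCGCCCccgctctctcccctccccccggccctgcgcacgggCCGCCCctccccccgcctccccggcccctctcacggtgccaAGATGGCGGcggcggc
KMT5A: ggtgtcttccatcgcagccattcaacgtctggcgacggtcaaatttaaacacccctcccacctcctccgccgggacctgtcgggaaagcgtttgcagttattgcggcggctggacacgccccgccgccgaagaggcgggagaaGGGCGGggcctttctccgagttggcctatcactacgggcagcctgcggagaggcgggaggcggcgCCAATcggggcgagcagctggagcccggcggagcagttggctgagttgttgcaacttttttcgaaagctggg

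The 6 windows are rich in G and C but differ in their motifs. KMT2B had the highest GC content, 83.2% with 44 CpG dinucleotides, and KDM4D the lowest, 59.6% with 24. The KAT5 window held 2 ETS sites, an E-box and a YY1 site, and no GC box. SETD6 held an ETS site, a GC box, a CCAAT box and an E-box, and KDM4D an ETS site, 3 GC boxes and a CCAAT box. KMT2A held 3 GC boxes only, KMT2B 4 GC boxes and a YY1 site, and KMT5A a GC box and a CCAAT box. The summit base had 105 bases of the window before it in KAT5, 45 in KMT2A, 249 in SETD6, 212 in KDM4D, 31 in KMT2B and 67 in KMT5A. A motif match describes the letters of the window and does not show a bound factor.

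Lysine methyltransferase genes were examined first. Of 24, 10 had a summit (41.7%, 22.1 to 63.4). Among the 7 H3K4 enzymes, 4 did: KMT2A and its paralogue KMT2B, and SETD1A and SETD1B, the catalytic subunits of the SET1 COMPASS complexes. The KMT2B summit lay at chromosome 19 position 35717784, 219 bp outside the gene. SETD1A had the lowest score of the group, 1.54, at a summit 11 bp from its outer end (chromosome 16 position 30957743). The SETD1B summit (chromosome 12 position 121799854, score 2.83) was unlike these, 9699 bp inside the gene. KMT2C and KMT2D, which act mainly at enhancers, and SETD7 had none.

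The H3K9 methyltransferase genes had no counted summit. None was found at EHMT1, EHMT2, SUV39H1, SUV39H2, SETDB1, SETDB2 or SETDB2-PHF11, 0 of 7 entries at 6 loci (interval to 41.0%), which at the 13.8% of all protein-coding genes is close to the background. Their nearest summits lay from 19077 bp away for SUV39H1 to 467694 bp for SETDB2. SETD2, which trimethylates H3K36, had a summit of score 3.02 at chromosome 3 position 47164313, 200 bp upstream of its annotated start. Of the H4K20 enzymes, KMT5A had a summit of 4.85 at chromosome 12 position 123383949, 183 bp upstream of the start, while KMT5B and KMT5C had none.

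The remaining methyltransferase genes with a summit encode proteins whose histone activity is absent or in question. SETD9, a little characterised SET domain gene, carried its summit 246 bp downstream of the start (chromosome 5 position 56909842). SETD6, which methylates the NF-kappaB subunit RELA, had its summit 1 bp upstream of the start (chromosome 16 position 58515516). SETD3 scored 2.09 at chromosome 14 position 99481173, 314 bp upstream of its start, where CCNK also lies within 1 kb. SETD5, a gene of neurodevelopmental disorders, scored 4.36 at chromosome 3 position 9397264, 351 bp outside the gene. SETD4 had none. KMT2E was the sole member with its nearest summit between 1 and 5 kb: that summit, of score 5.07 at chromosome 7 position 105012915, lay 1290 bp upstream and was not counted.

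Arginine methyltransferase genes were the next class of writers. PRMT5, which makes symmetric dimethylarginine on histones and splicing proteins, scored 3.17 at chromosome 14 position 22929608, 232 bp upstream of its start and beside the divergent transcript PRMT5-DT. PRMT7, a monomethylating enzyme, scored 3.29 at chromosome 16 position 68311106, 87 bp downstream of the start. PRMT2 scored 1.98 at chromosome 21 position 46635670, 4 bp upstream. All 3 lay below the list's median of 3.72, as 14 of the 29 members with a summit did in all, and PRMT5 and PRMT7 lay above its lower quartile of 2.76. PRMT1, PRMT3, PRMT6, PRMT8 and PRMT9 had no summit, so 3 of 8 were counted (37.5%, 8.52 to 75.5).

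Acetyltransferase genes had the highest share of any class, 4 of 8, with an interval from 15.7 to 84.3%. KAT6B, a catalytic subunit of the MOZ/MORF complexes, held 3 summits at chromosome 10 positions 74825323, 74826059 and 74826694, with scores of 2.69, 3.72 and 3.36. They lay 68, 804 and 1439 bp downstream of the start, and KAT6B is 1 of 13 protein-coding genes with 3 summits. KAT7, which encodes HBO1, an acetyltransferase linked to the licensing of replication origins, scored 3.56 at chromosome 17 position 49788791, 110 bp downstream of its start. KAT14, a subunit of the ATAC complex, scored 3.02 at chromosome 20 position 18137793, 640 bp inside its upstream outer end and 7306 bp upstream of the annotated start. That summit is shared with PET117. KAT5 had a further summit of score 4.57, 1065 bp beyond the gene near RNASEH2C, just outside the 1 kb limit. KAT2A, KAT2B, KAT6A and KAT8 had none.

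Lysine demethylase genes had a summit in 6 of 20 (30.0%, 11.9 to 54.3), and 4 of these 6 were assigned to H3K9. KDM3A, which removes methyl groups from H3K9 and responds to hypoxia, had the highest eraser score, 5.27, at chromosome 2 position 86440793, 578 bp upstream of its annotated start. Its paralogue KDM3B scored 4.32 at chromosome 5 position 138352859, 174 bp downstream of the start. KDM4D scored 5.20 at chromosome 11 position 94973671, 38 bp outside the gene, and the same summit lies within 1 kb of CWC15, a splicing factor gene. KDM7A, which acts on H3K9 and H3K27, held 2 summits at chromosome 7 positions 140175497 and 140177294, with scores of 4.30 and 3.25, on either side of its start. Among the members assigned to H3K9, 0 of 7 methyltransferase entries and 4 of 9 demethylase genes had a summit (44.4% of the demethylases, 13.7 to 78.8). Of all protein-coding genes, 13.8% had one. The 7 entries include SETDB2 and SETDB2-PHF11, which share a locus, and H3K9 enzymes with other names are not in these counts. Sites were assigned by hand, with KDM1A and KDM1B under H3K4 alone, and another assignment would change the counts.

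For H3K4, 4 of 7 methyltransferase genes (57.1%, 18.4 to 90.1) and 1 of 6 demethylase genes (16.7%, 0.421 to 64.1) had a summit, and the share of the demethylases is near the 13.8% of all protein-coding genes. That demethylase was KDM1A (LSD1), with a score of 3.13 at chromosome 1 position 23019408, 60 bp upstream of its start. KDM1B, KDM5A, KDM5B, KDM5C and KDM5D had none. KDM5C lies on X, where 4.72% of protein-coding genes had a summit, and KDM5D on Y, where the list holds no summit. For both marks the intervals of the opposing enzymes overlap and the differences were not tested, so no order of writers and erasers is read from them. The H3K27 demethylase gene KDM6B held 2 summits at chromosome 17 positions 7835700 and 7842044, with scores of 4.48 and 3.44, at 1483 and 7827 bp downstream of its start. KDM6A had none, and neither did the H3K36 demethylase genes KDM2A and KDM2B or the genes KDM4A, KDM4B, KDM4C, KDM4E, KDM4F or KDM8.

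Deacetylase genes with a summit came from several classes. HDAC2, a class I enzyme of the NuRD and SIN3 complexes, scored 3.63 at chromosome 6 position 113971300, 152 bp upstream of its start. The class IIa genes HDAC4 and HDAC5 scored 2.52 and 4.30, at chromosome 2 position 239401628 and chromosome 17 position 44123518. These summits lay 21 and 123 bp inside an outer end. In HDAC4 this was the upstream end of the gene, and the summit lay 126847 bp upstream of the annotated start. HDAC10, known as a polyamine deacetylase, scored 3.17 at chromosome 22 position 50244884, which is 6381 bp downstream of its start, beyond the far end of the gene, and in or near TUBGCP6. HDAC1, HDAC3, HDAC6, HDAC7, HDAC8, HDAC9 and HDAC11 had none, giving 4 of 11 (36.4%, 10.9 to 69.2).

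Sirtuins, the NAD-dependent deacylases, had a summit at 2 of 7 genes (28.6%, 3.67 to 70.96). SIRT1, a nuclear deacetylase of histones and p53, scored 4.44 at chromosome 10 position 67884582, 74 bp upstream of its start. SIRT2, a mainly cytoplasmic enzyme, scored 2.90 at chromosome 19 position 38899992, 374 bp upstream, at a summit that NFKBIB shares. The mitochondrial SIRT3, SIRT4 and SIRT5 had none, nor did the nuclear SIRT6 and SIRT7. SIRT3 was the nearest miss beyond 5 kb, with a summit 6261 bp away.

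**Figure D2:**
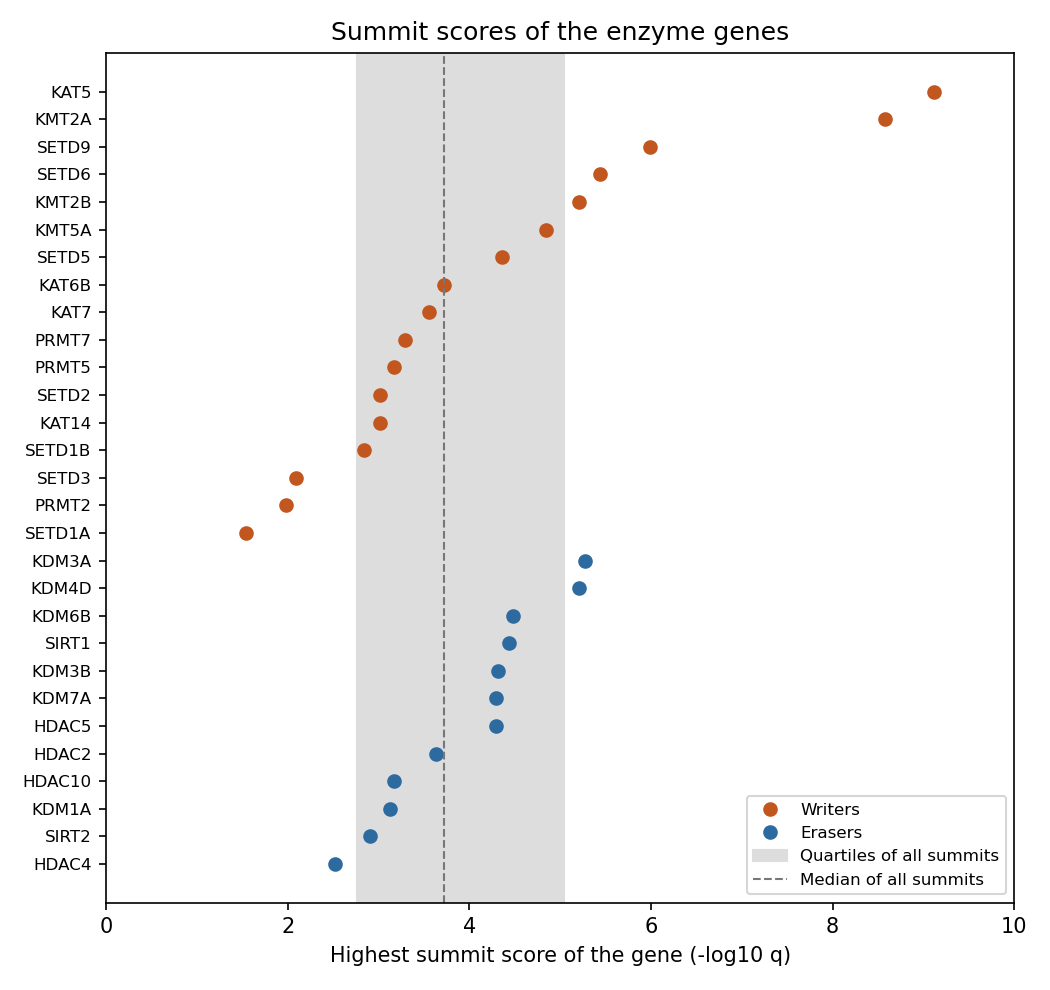
Highest summit score of each of the 29 enzyme genes with a summit (x axis, −log10 q; 1 row per gene, writers above erasers), with the quartiles and median of all 2697 summits shaded and dashed. Writers spread from 1.54 at SETD1A to 9.12 at KAT5, and erasers from 2.52 at HDAC4 to 5.27 at KDM3A.

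Scores in the group lay in the range of other summits. Taking the highest summit of each gene, the median was 3.72 (quartiles 3.02 and 4.85) over the 29 members and 3.74 (2.83 and 5.12) over the 2765 protein-coding genes with a summit. Writers had a median of 3.56 and erasers of 4.30, although the highest scores belonged to writers. Of the 29 genes, 15 scored at or above the median of all summits and 14 below it. Among summits at or above that median, 15 of the 78 members had one, where 7.32% of protein-coding genes did, and among the 1000 highest-scoring summits 10 did, where 5.28% did. Several summits were held by 3 of the 29 (10.3%), KAT6B, KDM6B and KDM7A, and by 164 of the 2765 (5.93%).

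The position of the summits was compared with the annotated starts. Of the 27 members with a summit and an annotated start, 23 (85.2%) had it within 1 kb of that start and 18 (66.7%) within 250 bp, where all protein-coding genes with a summit gave 82.9% and 57.1%. The median distance was 200 bp in members and 207 bp in all such genes. Counting only summits within 1 kb of the annotated start, 23 of 72 members had one (31.9%), where 12.1% of protein-coding genes did. KDM6B, KAT14, HDAC4 and HDAC10 were the genes whose summits lay farther from the annotated start. In HDAC4 and KAT14 the summit was near the upstream outer end of the gene, 21 and 640 bp inside it.

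**Figure D3:**
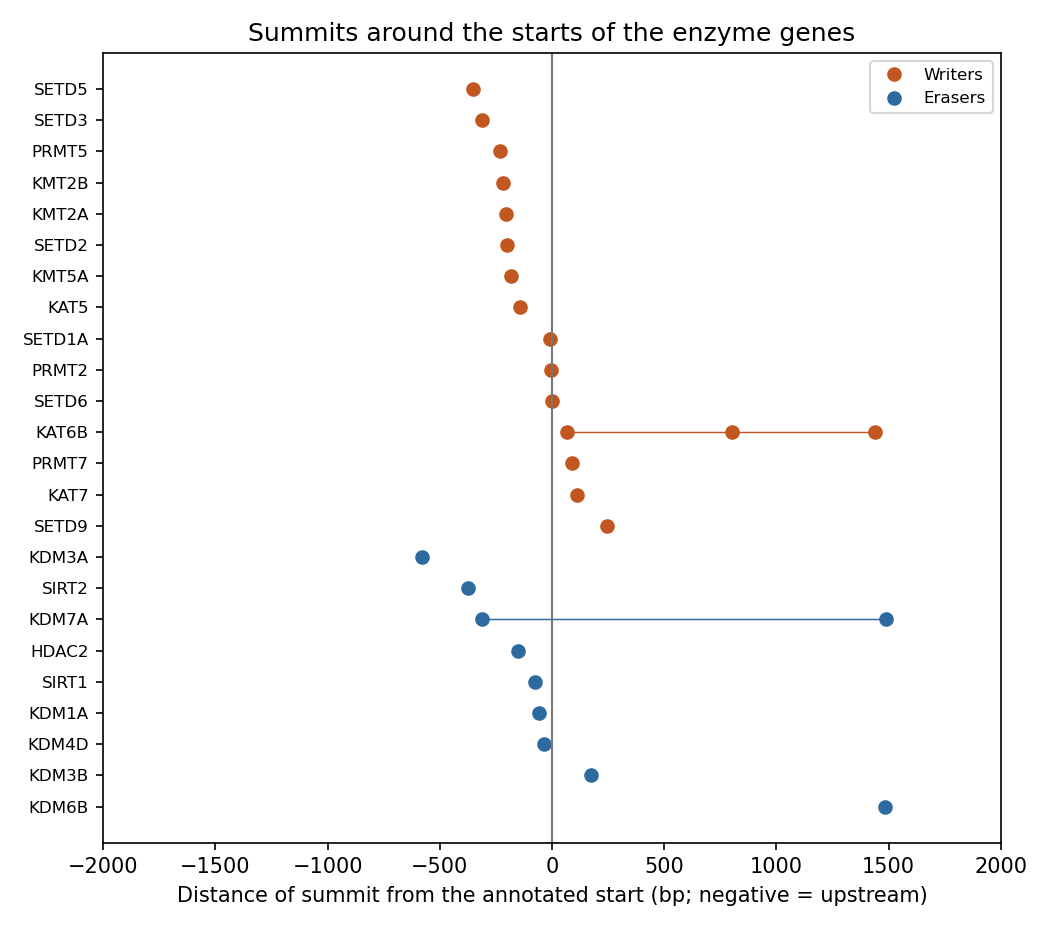
Distance of each summit from the annotated start of its gene (x axis, bp, negative upstream) for the 24 enzyme genes with a counted summit within 2 kb of that start (KMT2E, whose summit was not counted, is left out), writers above erasers, with lines joining summits of 1 gene. Points gather close to 0, mostly upstream, and KAT6B, KDM7A and KDM6B reach more than 1 kb downstream.

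Other genes lay at some of these summits. For 10 of the 29 members (34.5%) every counted summit was also in or within 1 kb of another protein-coding gene, as it was for 916 of the 2765 genes with a summit (33.1%). Besides SETD3, KDM4D, KAT14, SIRT2 and HDAC10, these were SETD6 (with NDRG4), PRMT7 (SLC7A6OS), KAT7 (FAM117A), KMT2B (ZBTB32) and KDM6B (LOC124904106). The list cannot assign such a summit to either gene. Non-coding genes had an end within 1 kb of summits at HDAC4, SETD5, SETD2, KDM7A and PRMT5.

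Gene length and base composition, which differ between the members and other genes, were set beside the shares. Members had a median length of 42160 bp and all protein-coding genes of 24115 bp. Between the members' length quartiles (20923 to 89934 bp), 17 of 38 members had a summit, where 16.2% of protein-coding genes of that length did. Within 1 kb of an outer end alone, which does not grow with length, 25 of 78 members had one (32.1%), where 11.6% of protein-coding genes did. The members' chromosomes had a mean share of 14.5% of genes with a summit, and the 29 genes lay on 16 chromosomes with at most 3 on each. On X, 0 of 5 members had a summit, and 4.72% of all its protein-coding genes. Y, which carries KDM5D, held no summit. The members on X and Y are erasers except SUV39H1, which bears on the count of writers and erasers.

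The median CpG count in the 280-base window around the start was 27 in members and 20 in all protein-coding genes, but it did not separate members with a summit from those without. The median was 27 in the 27 members with a summit and 27 in the 45 without, whereas all protein-coding genes had 27 with a summit and 19 without. Median GC content was 66.4% in members with a summit and 65.0% in members without. Where the CpG count was between 20 and 31, the members' quartiles, 15 of 38 members had a summit (39.5%), where 18.6% of protein-coding genes did. Expression and chromatin accessibility in SW620 were not analysed here, and their part in the result was not tested.

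**Figure D4:**
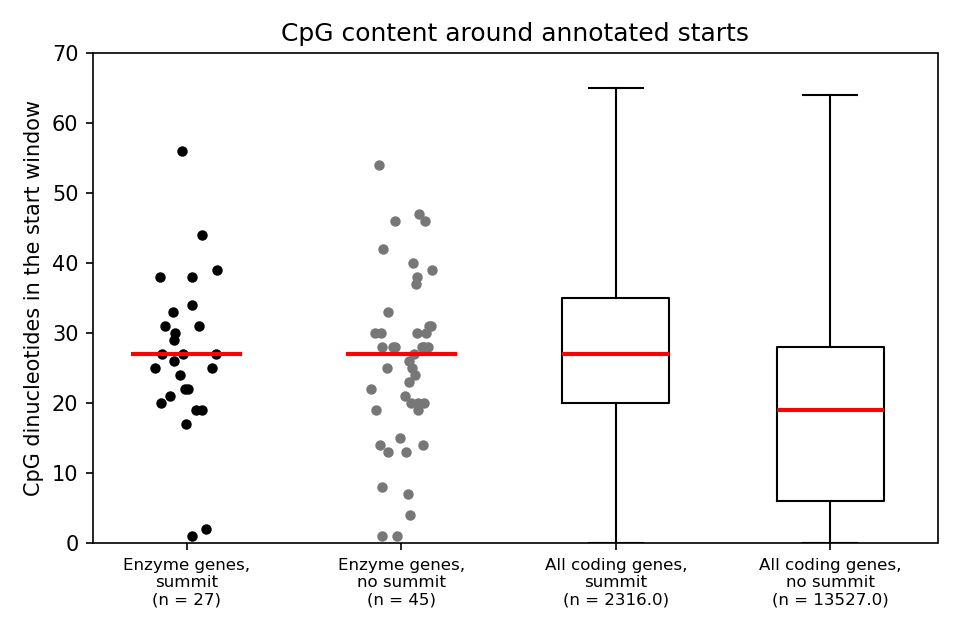
CpG dinucleotides in the 280-base window around the annotated start (y axis) for enzyme genes with and without a summit (points, red line the median) and for all protein-coding genes with and without (boxes, quartiles with whiskers to the extremes). The medians are 27, 27, 27 and 19 from left to right.

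Motifs in the same start windows were counted as a description. The windows were grouped by whether the gene had a summit, in it or within 1 kb. The summit need not lie in the window, and among members it did so in 13. A GC box was present in 20 of 27 members with a summit (74.1%) and in 25 of 45 without (55.6%). This was much as in all protein-coding genes, 74.6% of those with a summit and 54.6% of those without. The ETS site was in 6 and 7 members (22.2% and 15.6%), beside 19.7% and 12.9% of all protein-coding genes with and without a summit. The CCAAT box was in 11 and 13 (40.7% and 28.9%), whereas all protein-coding genes gave 35.4% and 35.9%. A YY1 site was in 3 members with a summit (11.1%), KAT5, KMT2B and PRMT5, and in 4 without (8.89%), KDM5C, KMT2E, PRMT1 and SUV39H2. All protein-coding genes with and without a summit gave 4.23% and 2.63%. NRF1 sites were in 0 and 3 members (6.67% of those without), beside 7.17% and 3.64% of all protein-coding genes with and without a summit. E-boxes were in 3 and 7 members (11.1% and 15.6%), beside 11.8% and 8.07% of all protein-coding genes with and without a summit. The cAMP response element was in 0 and 2 members (4.44% of those without), beside 3.63% and 2.42% of all protein-coding genes. No member window held the TATA box, which was in 4.27% of all protein-coding genes with a summit and 10.3% of those without.

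For the members without a summit, the distance to the nearest one is given as a description. The same distance was not computed for all protein-coding genes, so it is not read as a trait of the members. Of the 49, 48 lay on a chromosome with summits, at a median distance of 141848 bp to the nearest. For 28 it was more than 100 kb away, and for PRMT6, KAT2B, SETD7, PRMT9, KDM8 and KDM6A more than 1 Mb. SETD7 was the farthest, at 43947910 bp. Chromosome 4, which carries SETD7 and PRMT9, held 50 summits in all.

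Histone enzymes with other names and the subunits that work with them were counted in the same way, again beside 13.8% of all protein-coding genes. CREBBP, a coactivator acetyltransferase gene, scored 5.95 and NCOA3, a nuclear receptor coactivator gene, 6.01; with NAA40 (3.02) they made 3 of 9 other acetyltransferase genes (33.3%), and EP300 had no summit. Other methyltransferases had 2 of 16 (12.5%), the H3K36 enzymes NSD2 (4.51) and ASH1L (3.45), a share at the background. Other demethylases had 3 of 8 (37.5%): JMJD1C (5.18), JMJD6 (4.12), known chiefly as a lysyl hydroxylase, and PHF2 (2.36). COMPASS subunits, the partners of the H3K4 methyltransferases, had 2 of 13 (15.4%), PAXIP1 (3.74) and MEN1 (3.19), also near the background.

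Subunits of acetyltransferase complexes had 9 of 39 (23.1%, 11.1 to 39.3). The highest scores were at ING1 (5.63) and ING2 (5.27), which encode readers of H3K4 methylation, then TRRAP (4.12), the scaffold shared by NuA4 and SAGA, and MRGBP (4.08). Deacetylase complex subunits had 6 of 32 (18.8%, 7.21 to 36.4), led by MTA2 (5.01) of NuRD, SIN3A (4.26), BRMS1L (3.76) and HMG20B (3.08). ING1 and ING2 are known mainly from the SIN3 deacetylase complexes, and with both moved to that list the counts were 7 of 37 (18.9%) for acetyltransferase and 8 of 34 (23.5%) for deacetylase complexes, so these lists have no fixed order. Together the lists of related genes, Polycomb subunits included, had 31 of 128 with a summit (24.2%, 17.1 to 32.6), a share that lies between those of the enzyme genes and of all protein-coding genes. That order was not tested.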

How the data were processed

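The deposited list gives 1 summit per peak with a score on the −log10 scale, taken as the q-value's because the smallest, 1.31, is just above the 1.30 of q = 0.05. The submitters' processing notes name MACS2 2.2.7.1, Bowtie2 2.4.4, Trimmomatic 0.39 and build hg38, and per the design text the control was input DNA. Whether replicates were pooled, and how, was not given in the sources used here. This score is the authors' own, used only within the list. Chromatin was cross-linked in 1% formaldehyde and sheared to 200 to 500 bp, per the labels.

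Summits were joined to outer gene limits of the RefSeq table on chromosomes 1 to 22, X and Y (GRCh38.p14, the coordinates of hg38) with Python 3.11.15, pandas 2.3.3 and SciPy 1.17.1. The join was tested on simulated data. Every member with a summit is named. Shares carry exact Clopper-Pearson 95% intervals. Promoter windows came from RefSeq: 72 of 78 members matched, and a gene has 1 start there. Roles and sites were assigned by hand, and the motifs were chosen after the summits were seen. Members and lists were chosen with earlier results of these data known. Alternatives changed the window, the part of the gene, the score threshold, the members and shared summits.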

Additional observations from a re-analysis of the deposited data

How the results depend on the processing

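Of 29 alternative values, 23 stayed within 1.5 times the main count or, for the median score, within its interval (3.13 to 4.48). Counts fell below that range under stricter score thresholds, which leave fewer summits. At or above the list's median score, 15 of all 78 members had a summit, 8 of the writers and 7 of the erasers, where 7.32% of protein-coding genes did. With the 1000 highest-scoring summits the counts were 10, 6 and 4, where 5.28% did. Windows of 500 bp and 5 kb gave 29 and 30 members. Leaving out the 15 genes not marked as acting on histones gave 24 of 63 (38.1%), where 13.8% of all protein-coding genes had a summit. These were 13 of 31 writers (41.9%) and 11 of 32 erasers (34.4%), a gap of 7.56 points. Counting a summit for its nearest gene alone gave 24 members, 15 writers and 9 erasers, where 11.6% of protein-coding genes had one. The share of writers exceeded that of erasers by 10.9 percentage points in the main count and by 1.58 to 17.7 points under the alternatives. It nearly closed at or above the median score (1.58) and was 4.47 with the 1000 highest-scoring summits. Moving ING1 and ING2 between lists was chosen after seeing the data. The median score was 3.56 for outer ends alone and for all summits, and 4.01 within 5 kb. No paired analysis was possible because the values come from 1 summit list without replicates. Read depth is unknown, which limits what a missing summit can show.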

Other observations

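Among the related gene lists, the Polycomb repressive complex 2, which methylates H3K27, was singled out after its values were seen. Of 11 genes 6 had a summit (54.5%, exact 95% interval 23.4 to 83.3), beside 13.8% of all protein-coding genes, and all 6 encode accessory subunits: PHF1 (6.84), JARID2 (4.44), PHF19 (4.35), EPOP (2.64), AEBP2 (2.16) and MTF2 (1.95). The core subunit genes EED, SUZ12, RBBP4 and RBBP7 had none, 0 of 4, which is close to the background. EZHIP, which encodes an inhibitor of the complex, had none either, nor did the catalytic EZH1 and EZH2, which were counted among the other methyltransferases. The summits of MTF2, EPOP and PHF1 lay 14, 40 and 424 bp from an outer end, and those of JARID2, PHF19 and AEBP2 lay 2613, 20824 and 35704 bp from it. The split between accessory and core subunits was not tested.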
